A study of Mus musculus with 10 samples.

Results

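The matrix metalloproteinases and their tissue inhibitors are the enzymes that cut the proteins of the extracellular matrix and the small secreted proteins that block them. The 10 genes described here were chosen by name from the 29583 genes and loci of the deposited table. They comprise 7 metalloproteinases (Mmp2, Mmp3, Mmp9, Mmp10, Mmp11, Mmp13 and Mmp14) and 3 inhibitors (Timp1, Timp2 and Timp3). All 10 were found in the table, and 8 of them passed the filter on low counts. Mmp3 and Mmp10 did not.

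The cells were MC3T3-E1, a line of osteoblast precursors from the skull of newborn C57BL/6 mice, sequenced as bulk mRNA after culture with β-ecdysterone, a plant sterol. Each of day 5 and day 10 has 1 library per dose, the doses being 0, 100, 150 or 200 μM. A further 2 libraries, A-5 and B-4, carry the label untreated and no time. Treated cells thus have 6 libraries, the 3 doses of each day standing in as replicates, and 0 μM has 2 libraries, 1 from each day. Nothing ties the libraries to separate cultures, so p-values measure only the spread between these libraries.

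Library totals ran from 27108562 to 58218009 counts. Levels are given in CPM, counts per normalized library size. A count of 0 allows up to 3 counts, or 0.0502 to 0.118 CPM in the compared libraries, for counting error alone. The source label names bone marrow mesenchymal stem cells and the title MC3T3-E1. All 8 osteoblast markers examined were detected in treated libraries, with Col1a1 at 6019 CPM or more in every compared library. At 0 μM, however, Alpl (0 and 2 counts), Bglap (0.221 to 0.472 CPM) and Ibsp (0.668 to 0.853 CPM) lay under 1 CPM. The 6 osteoclast markers each lay under 1 CPM in all 8 compared libraries, as did 4 of 6 leukocyte and macrophage, 2 of 4 endothelial, 3 of 5 cartilage and 3 of 4 adipocyte markers. Other markers were well detected, with Lyz2 at 15.5 to 62.2 CPM and the cartilage markers Col2a1 and Sox9 at 22.5 to 92.6 and 36.7 to 86.5 CPM. Library B-4 stood apart from its label's group. Over 16794 genes its Spearman correlation was 0.96 to 0.964 with the treated libraries and 0.942 to 0.946 with those at 0 μM, whereas A-5 had 0.948 to 0.96 with treated and 0.98 to 0.983 with 0 μM. Both were kept out of the main comparisons.

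Metalloproteinases are made as inactive precursors and need a zinc ion to cut. Collagenases such as Mmp13 open the collagen triple helix, gelatinases such as Mmp2 and Mmp9 cut the unwound chains, and the membrane-bound Mmp14 both cuts collagen at the cell surface and activates the Mmp2 precursor in a complex that includes Timp2. In bone, Mmp13 is made by osteoblasts and by hypertrophic chondrocytes, and AP-1 and Runx2 are known to act on its promoter.

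Mmp13, Mmp3 and Mmp10 lie in 1 cluster of 10 metalloproteinase genes on chromosome 9 that spans 427 kb (7272514 to 7699585 of GRCm38, GENCODE M21). Mmp13 stands at its edge, at 7272514 to 7283331 on the plus strand, with Mmp3 at 7445822 to 7455975 and Mmp10 at 7502352 to 7510240 on the same strand. Mmp13 had at least 925 counts in every library and up to 80406, whereas the other 9 genes of the cluster had at most 115 counts in any library. The other members lie on chromosomes 8 (Mmp2), 2 (Mmp9), 10 (Mmp11 and Timp3), 14 (Mmp14), 11 (Timp2) and X (Timp1).

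Promoter sequences are shown for the neighbours Mmp13, Mmp3 and Mmp10, which share a cluster but not a level, and for Mmp14 and Timp1, which are described below as a rise and a fall. Of the members, 8 matched an entry in the RefSeq promoter table (GRCm38.p6), and each window holds 250 bases before and 50 bases after the gene's start. Capitals mark the AP-1 motif TGANTCA, the RUNX motif AACCACA and the TATA box letters TATAAA, searched on both strands.
Mmp13 (chr9:7272264-7272563, plus strand): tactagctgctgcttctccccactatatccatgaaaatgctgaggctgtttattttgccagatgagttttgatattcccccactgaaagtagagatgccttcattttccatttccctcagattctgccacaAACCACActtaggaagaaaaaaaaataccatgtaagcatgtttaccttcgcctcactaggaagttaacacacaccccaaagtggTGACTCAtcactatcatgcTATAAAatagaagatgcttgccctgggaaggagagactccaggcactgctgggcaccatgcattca
Mmp3 (chr9:7445572-7445871, plus strand): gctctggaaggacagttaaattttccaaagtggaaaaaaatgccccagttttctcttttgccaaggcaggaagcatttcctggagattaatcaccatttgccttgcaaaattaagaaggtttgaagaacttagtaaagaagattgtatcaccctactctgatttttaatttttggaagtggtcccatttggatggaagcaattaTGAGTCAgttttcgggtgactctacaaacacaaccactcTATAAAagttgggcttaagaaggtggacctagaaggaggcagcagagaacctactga
Mmp10 (chr9:7502092-7502391, plus strand): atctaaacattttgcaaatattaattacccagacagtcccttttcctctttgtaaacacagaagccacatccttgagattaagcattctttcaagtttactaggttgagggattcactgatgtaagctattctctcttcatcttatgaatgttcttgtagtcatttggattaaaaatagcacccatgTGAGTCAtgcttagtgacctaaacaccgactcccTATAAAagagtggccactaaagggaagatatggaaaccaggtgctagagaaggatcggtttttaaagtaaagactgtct
Mmp14 (chr14:54431348-54431647, plus strand): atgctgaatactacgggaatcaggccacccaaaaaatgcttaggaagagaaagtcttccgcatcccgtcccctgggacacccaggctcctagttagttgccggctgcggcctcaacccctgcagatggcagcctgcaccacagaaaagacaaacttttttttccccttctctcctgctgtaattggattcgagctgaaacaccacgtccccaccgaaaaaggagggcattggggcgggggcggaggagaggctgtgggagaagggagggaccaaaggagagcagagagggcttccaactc
Timp1 (chrX:20869916-20870215, plus strand): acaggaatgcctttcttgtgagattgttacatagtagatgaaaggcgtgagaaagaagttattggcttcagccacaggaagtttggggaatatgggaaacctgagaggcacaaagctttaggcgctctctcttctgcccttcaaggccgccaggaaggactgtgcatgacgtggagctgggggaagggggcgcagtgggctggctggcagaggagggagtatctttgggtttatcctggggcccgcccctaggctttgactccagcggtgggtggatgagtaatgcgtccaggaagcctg

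The AP-1 letters stood in all 3 windows from the cluster, starting 35 bases before the start of Mmp13, 46 before that of Mmp3 and 63 before that of Mmp10. TATAAA was in the same 3 windows, and AACCACA stood in that of Mmp13 alone among the 8, 119 bases before its start. The windows of the other 5 matched members, Mmp14 and Timp1 included, held none of these letters. Only these exact letters were searched, so variant forms of the motifs, in these windows as in all others, were not counted. Mmp2 and Mmp9 had no window. Of all 32851 promoters in the table, 7.81% held TGANTCA, 5.27% held AACCACA and 13.6% held TATAAA. Mmp3 and Mmp10, with few or no counts, thus carried the AP-1 and TATA motifs in their windows as Mmp13 did. A match is a description of the sequence and not a site shown to be used.

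To examine whether β-ecdysterone changed these genes, 16794 genes were tested between the 6 treated libraries and the 2 at 0 μM, with day as a covariate. Of the 8 members tested, 3 were higher (Mmp13, Mmp2 and Mmp14) and 1 was lower (Timp1) in edgeR's quasi-likelihood test, where a call needed an adjusted p (Benjamini-Hochberg) under 0.05 and a log2 fold change above 1 or under -1. Of all genes tested, 13.4% were called higher and 5.98% lower. An unadjusted p under 0.05 was found for 6 of the 8 members and 51.5% of all genes (edgeR). Where groups are described below as not overlapping, the share of all genes that separate in this way was not counted. The median log2 fold change was 0.54 over the 8 members and 0.05 over all genes, and 6 of the 8 were positive against 53.1% of all genes. In these bulk samples, fewer cells of a type and less RNA per cell cannot be told apart.

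Mmp13, the collagenase, changed most among the members. Its level was 18.4 CPM at 0 μM on day 5, against 336, 361.5 and 269 CPM at 100, 150 and 200 μM on that day. On day 10 it was 29.2 CPM at 0 μM and 971, 1184 and 1545 CPM at 100, 150 and 200 μM. The groups did not overlap: the lowest treated library stood far above the higher of the libraries at 0 μM, and within each dose day 10 was above day 5. Mmp13 was 25.9-fold higher in treated cells, a log2 fold change of 4.69 (SE 0.36, adjusted p = 1.15e-05, edgeR), and higher in 6 of 6 treated libraries than at 0 μM on the same day. The single libraries were 14.6-fold to 19.6-fold higher than 0 μM on day 5 and 33.2-fold to 52.8-fold on day 10.

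Mmp2, the gelatinase, was the most abundant metalloproteinase of the group. Its level was 1113 CPM at 0 μM on day 5 and 3116, 2402 and 2842 CPM at 100, 150 and 200 μM. On day 10 it was 1214 CPM at 0 μM and 5238, 3656 and 3831 CPM at the same doses. All treated libraries lay above both at 0 μM, and 100 μM gave the highest level on both days. Mmp2 was 2.92-fold higher in treated cells, a log2 fold change of 1.55 (SE 0.20, adjusted p = 0.000208, edgeR).

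Mmp14, the membrane-bound activator of Mmp2, was also above both 0 μM libraries in all 6 treated libraries. Its level was 332 CPM at 0 μM on day 5 and 721, 574.5 and 602 CPM at 100, 150 and 200 μM, and on day 10 it was 347 CPM at 0 μM and 971, 488 and 753.5 CPM. As with Mmp2, 100 μM gave the highest level on both days. The log2 fold change was 1.001 (SE 0.23, adjusted p = 0.0056, edgeR), which is at the fold limit itself, and the call held in 11 of 27 alternative settings. Leaving out the library at 0 μM on day 10 gave 0.91 (adjusted p = 0.0676), and leaving out 100 μM on day 10 gave 0.88 (adjusted p = 0.00463, edgeR). It was also under the limit without 100 μM on day 5 (0.955) or 200 μM on day 10 (0.994).

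**Figure D1:**
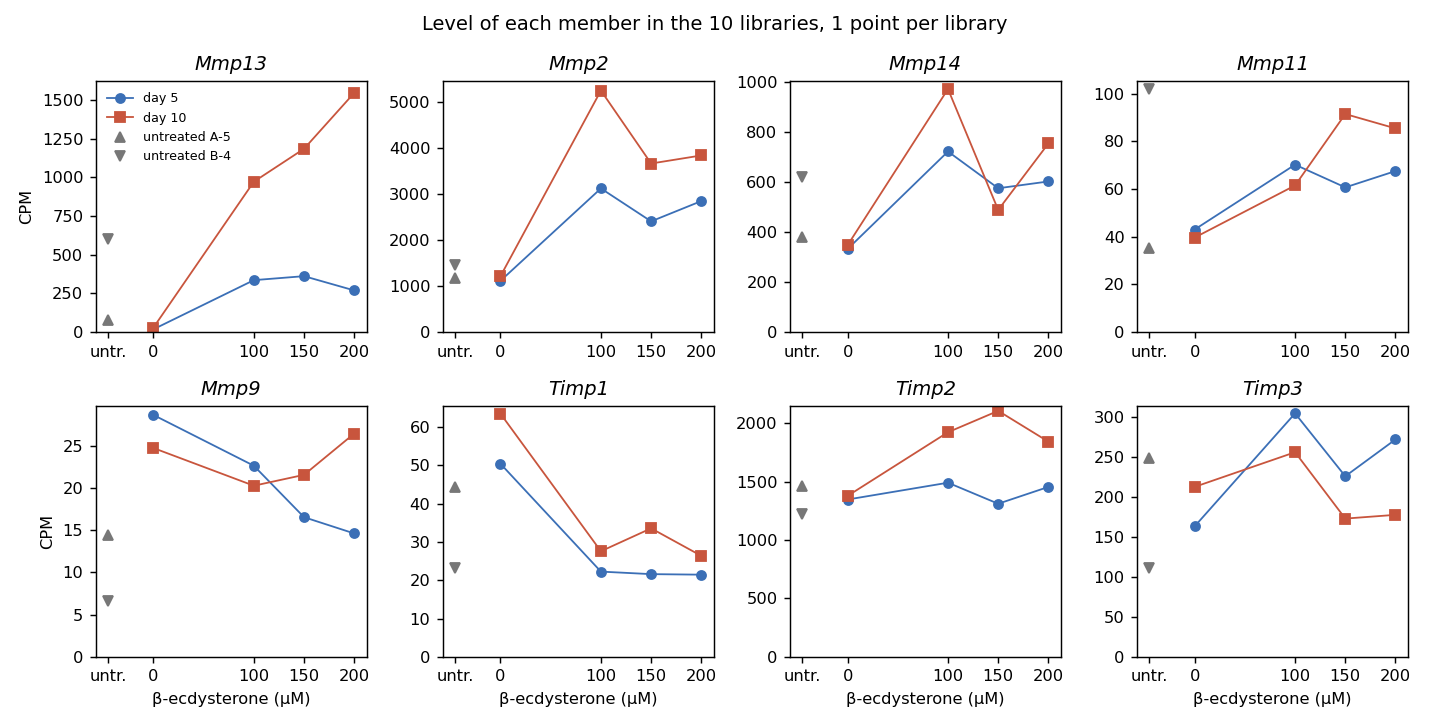
Level of the 8 tested members in CPM (vertical axes, starting at 0) by β-ecdysterone dose in μM, with 1 point per library, lines joining the doses of a day, and the untreated libraries in grey on the left. Mmp13, Mmp2, Mmp14 and Mmp11 lay above the 0 μM level in every treated library and Timp1 below it, and Mmp13 reached 1545 CPM at 200 μM on day 10. The share of all genes that separate in this way was not counted.

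Among the inhibitors, Timp1, a secreted inhibitor of most metalloproteinases that is encoded on the X chromosome, fell. Its level was 50.4 CPM at 0 μM on day 5 and 22.3, 21.6 and 21.5 CPM at 100, 150 and 200 μM. On day 10 it was 63.5 CPM at 0 μM and 27.6, 33.6 and 26.4 CPM at these doses. Every treated library lay below both libraries at 0 μM, and the 3 doses of day 5 were nearly equal. Timp1 was 2.26-fold lower in treated cells, a log2 fold change of -1.17 (SE 0.10, adjusted p = 1.9e-05, edgeR). Timp1 overlaps Syn1 on the opposite strand, and the pair shares 0 exon bases.

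Timp2, the inhibitor that also takes part in Mmp2 activation, was the most abundant of the 3 and did not pass the test. It was 1346 CPM at 0 μM on day 5 and 1490, 1310 and 1454 CPM at 100, 150 and 200 μM, and on day 10 it was 1377 CPM at 0 μM and 1922, 2105 and 1841 CPM. The day 5 libraries overlapped with 0 μM and the day 10 libraries lay above it. The log2 fold change was 0.28 (SE 0.13, adjusted p = 0.11, edgeR). For Timp3, the inhibitor that binds to the matrix, the values were 163 CPM at 0 μM and 305, 226 and 272 CPM at these doses on day 5, and 213 CPM at 0 μM and 256, 173 and 178 CPM on day 10. The doses of day 5 lay above their control and those of day 10 lay on both sides of it, and the log2 fold change over both days was 0.29 (SE 0.21, adjusted p = 0.291, edgeR). Timp3 shares 1733 exon bases with Syn3 on the opposite strand, and the sources used here do not say whether counting used strand. Syn3 itself had 8 to 38 counts.

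Mmp11, a stromelysin activated inside the cell by furin, showed a smaller difference that stayed under the fold limit. It was 43.0 CPM at 0 μM on day 5 and 70.2, 60.7 and 67.5 CPM at 100, 150 and 200 μM, and on day 10 it was 39.6 CPM at 0 μM and 61.5, 91.4 and 85.4 CPM. The groups did not overlap, and the log2 fold change was 0.80 (SE 0.16, adjusted p = 0.00289, edgeR). Without the library at 0 μM on day 5 it was 1.002 and past the limit. Mmp11 shares 155 exon bases with Chchd10 on the opposite strand, which had 4 to 42 counts.

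Mmp9, the other gelatinase, did not pass the test. It was 28.7 CPM at 0 μM on day 5 and 22.7, 16.6 and 14.6 CPM at 100, 150 and 200 μM, and on day 10 it was 24.8 CPM at 0 μM and 20.3, 21.6 and 26.5 CPM. The treated and 0 μM libraries overlapped, and the log2 fold change was -0.42 (SE 0.18, adjusted p = 0.091, edgeR). The stromelysins Mmp3 and Mmp10 were near or at 0 in all libraries. Mmp3 had 0 counts in both libraries at 0 μM, 2, 0 and 0 counts at 100, 150 and 200 μM on day 5, and 3, 4 and 3 counts on day 10. Mmp10 had 0 to 3 counts in the 10 libraries, so no difference in either gene was detectable at this depth.

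The effect was then read for each day, in a model with 4 groups in which the lone library at 0 μM was taken to vary like the treated ones. Mmp13 was higher by 4.11 on the log2 scale on day 5 and by 5.39 on day 10, and Mmp2 by 1.31 and 1.80. Timp1 was lower on both days, with log2 fold changes of -1.23 and -1.13. For Mmp14 the value was 0.91 on day 5 (adjusted p = 0.0666) and 1.08 on day 10 (adjusted p = 0.0314, edgeR). Timp2 stood at 0.06 and 0.50, Timp3 at 0.70 and -0.08, and Mmp11 at 0.60 and 0.998.

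The difference of the effect between days was tested itself over 17799 genes, of which 0.0112% were called. By edgeR 0 of the 8 members were called. Against 8.23% of all genes, 2 of the 8 members had an unadjusted p under 0.05. These were Mmp13 (difference 1.28 on the log2 scale, SE 0.36, adjusted p = 0.46) and Timp3 (difference -0.78, SE 0.33, adjusted p = 0.588). DESeq2 called 1 member, Mmp13 (difference 1.27, adjusted p = 0.034), and 78 genes in all.

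**Figure D2:**
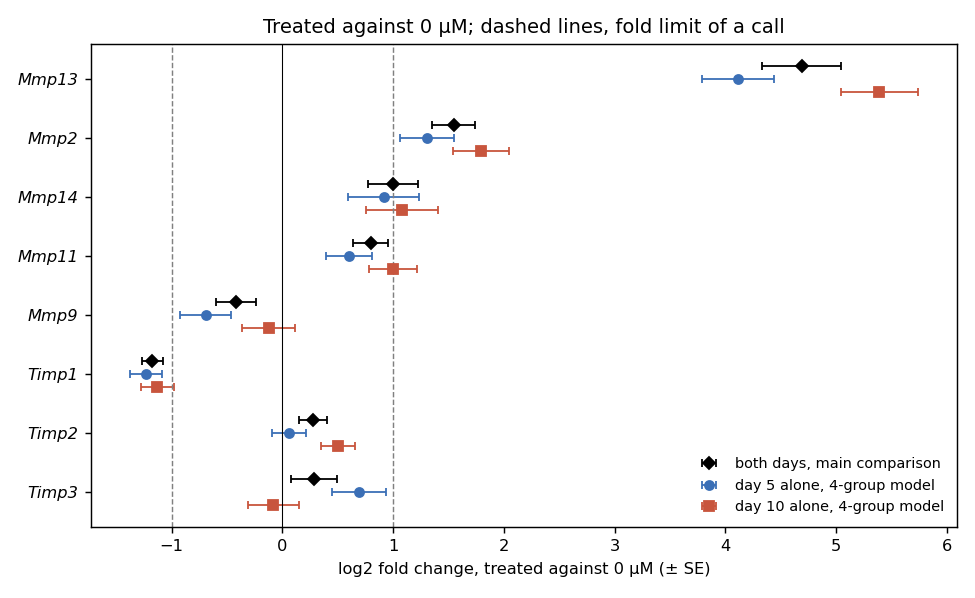
Log2 fold change of treated cells against 0 μM for the 8 tested members (horizontal axis), with bars of 1 SE, over both days (black diamonds, 6 treated and 2 control libraries) and for day 5 (blue circles) and day 10 (red squares) in a 4-group model. Mmp13 stood apart at 4.69, Mmp2 lay beyond the dashed line of the fold limit, Mmp14 on it at 1.001, and Timp1 beyond the lower line at -1.17.

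Within treated cells, day 10 was compared with day 5 over 16020 genes, 3 libraries a day. Mmp13 was called, and it was the only one of the 8 members called in either direction. Of all genes, 0.905% were called higher and 0.144% lower on day 10. The mean level of Mmp13 was 322 ± 47.5 CPM on day 5 and 1233 ± 289.9 CPM on day 10 (SD, n = 3 each), a 3.84-fold difference (log2 fold change 1.94, SE 0.18, adjusted p = 0.00374, edgeR). At 0 μM it was 18.4 and 29.2 CPM on the 2 days. An unadjusted p under 0.05 was found for 5 of the 8 members and 18.3% of all genes (edgeR). Mmp2, Timp1 and Timp2 were higher in each day 10 library than in any of day 5, by less than the fold limit. The share of all genes that separate in this way was not counted. The log2 differences of Mmp2, Timp1 and Timp2 were 0.61 (adjusted p = 0.0899), 0.43 (adjusted p = 0.0806) and 0.47 (adjusted p = 0.0633, edgeR). Their adjusted p depended on the setting. By DESeq2 it was 0.00298 for Mmp2, 0.0249 for Timp1 and 0.000334 for Timp2, and in edgeR with a filter of at least 1 count it was 0.0121, 0.0441 and 0.0248. With dose as a block, which pairs the days at each dose, it was 0.0317 for Mmp2, 0.0648 for Timp1 and 0.0581 for Timp2 (edgeR), and Mmp13 kept its call (log2 fold change 1.93, adjusted p = 0.00464). For Mmp9, Mmp11 and Mmp14 the difference lay between 0.23 and 0.36, and for Timp3 it was -0.40.

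A trend with dose was tested as a linear slope within the 6 treated libraries over 16020 genes. Of all genes, 0% were called by edgeR, and 0 of the 8 members were called, with 0 at an unadjusted p under 0.05. DESeq2 called 0 members and 2 genes, and 380 genes had an unadjusted p under 0.05 by edgeR. The slopes per 100 μM were 0.20 for Mmp13 (SE 0.23), -0.29 for Mmp2 (SE 0.19), -0.32 for Mmp14 (SE 0.25) and -0.34 for Timp3 (SE 0.18) on the log2 scale. Mmp13 stood in the order of dose on day 10 and not on day 5.

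Levels were compared between genes on the FPKM scale, which divides by transcript length. At 0 μM, Mmp2 (331 and 359 FPKM) and Timp2 (331.4 and 338 FPKM) had nearly the same level on both days, and Mmp14 followed (119 and 124 FPKM). Mmp13 (6.29 and 9.94 FPKM) stood below Timp1, Timp3 and Mmp11. In treated cells Mmp2 ranged from 723 to 1398 FPKM and Timp2 from 326.5 to 484 FPKM. Mmp13 rose to a rank above Timp1, Timp3 and Mmp11 in all 6 treated libraries, and at 200 μM on day 10 it was second to Mmp2, at 509.6 FPKM. The ratio of Mmp2 to Timp2 was 0.998 and 1.06 at 0 μM and between 2.10 and 3.29 in treated cells.

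The metalloproteinase members summed to 482 and 517 FPKM at 0 μM on days 5 and 10, and to 1514 ± 399.5 FPKM in treated cells (SD, n = 6, range 1087 to 2036), 3.03-fold of the mean at 0 μM. The 3 inhibitors summed to 417 and 447 FPKM at 0 μM and to 466 ± 57.7 FPKM in treated cells (SD, n = 6), 1.08-fold. The sum of metalloproteinases thus went from 1.16-fold of the inhibitor sum in both libraries at 0 μM to between 2.73-fold and 4.11-fold in treated cells. Mmp13 made up 1.30% and 1.92% of the metalloproteinase sum at 0 μM and from 7.76% to 26.7% in treated cells. These sums are of transcript levels and were not tested. Without Timp2, its most abundant member, the inhibitor sum in treated cells was 0.715-fold of that at 0 μM.

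**Figure D3:**
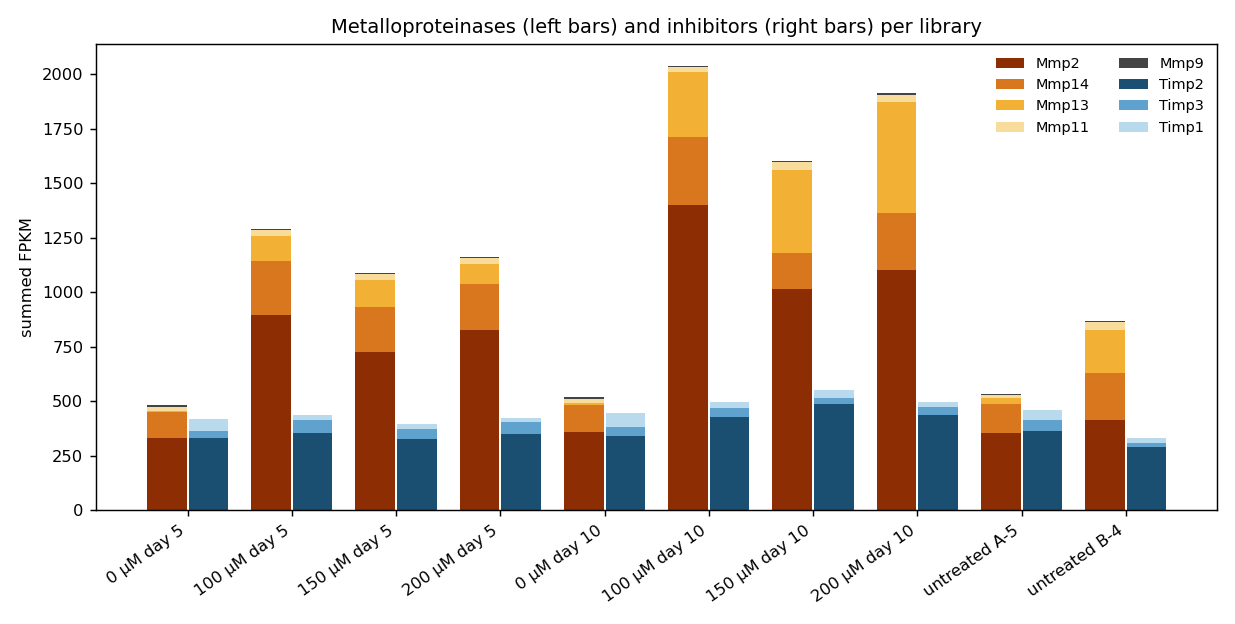
Summed FPKM (vertical axis, from 0) of the metalloproteinase members (left, brown to yellow, with Mmp9 in black) and of the 3 inhibitors (right, blue) in each of the 10 libraries; Mmp3 and Mmp10 are too low to draw. The metalloproteinase bar was close to the inhibitor bar at 0 μM, with 482 against 417 FPKM on day 5, and reached 2036 against 496 FPKM at 100 μM on day 10.

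The untreated libraries gave other control levels. With them as controls the calls of Mmp13, Mmp14 and Timp1 were lost, and that of Mmp2 was kept. Mmp13 was at 79.2 CPM in A-5 and 602.5 CPM in B-4, the latter above all 3 treated libraries of day 5. Timp1 was at 44.4 CPM in A-5 and 23.3 CPM in B-4, within the treated range. Mmp2 was at 1177 CPM in A-5 and 1461 CPM in B-4, below every treated library. Mmp14 was at 378 and 620 CPM, and Mmp11 at 35.1 and 101.9 CPM. The ratio of the metalloproteinase to the inhibitor sum was 1.16 in A-5 and 2.60 in B-4.

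With these 2 libraries in place of 0 μM, 1 member was called higher, Mmp2, and 0 lower, against 6.73% and 2.87% of the 16012 genes tested. The log2 fold change was 1.41 for Mmp2 (adjusted p = 0.0134), 1.18 for Mmp13 (adjusted p = 0.372), 0.45 for Mmp14 (adjusted p = 0.28) and -0.41 for Timp1 (adjusted p = 0.253, edgeR). In the lower direction 0 members had an unadjusted p under 0.05 by edgeR, the one tool run on these controls. A lone untreated library was taken to vary like the treated ones. Against A-5 alone Mmp13 was higher by 3.30 (adjusted p = 0.062) and Mmp2 by 1.59 (adjusted p = 0.0225). Against B-4 alone the values were 0.37 (adjusted p = 0.796) and 1.27 (adjusted p = 0.0485, edgeR). Members not called against 0 μM passed with a single untreated library as the control. Mmp11 was higher against A-5 (1.06, adjusted p = 0.016), and Mmp9 (1.61, adjusted p = 0.0101) and Timp3 (1.07, adjusted p = 0.0383, edgeR) were higher against B-4. Mmp2 kept its call in all 27 alternative settings, Mmp13 in 23 and Timp1 in 21. The 4 settings that ended the call of Mmp13 were those with untreated libraries.

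**Figure D4:**
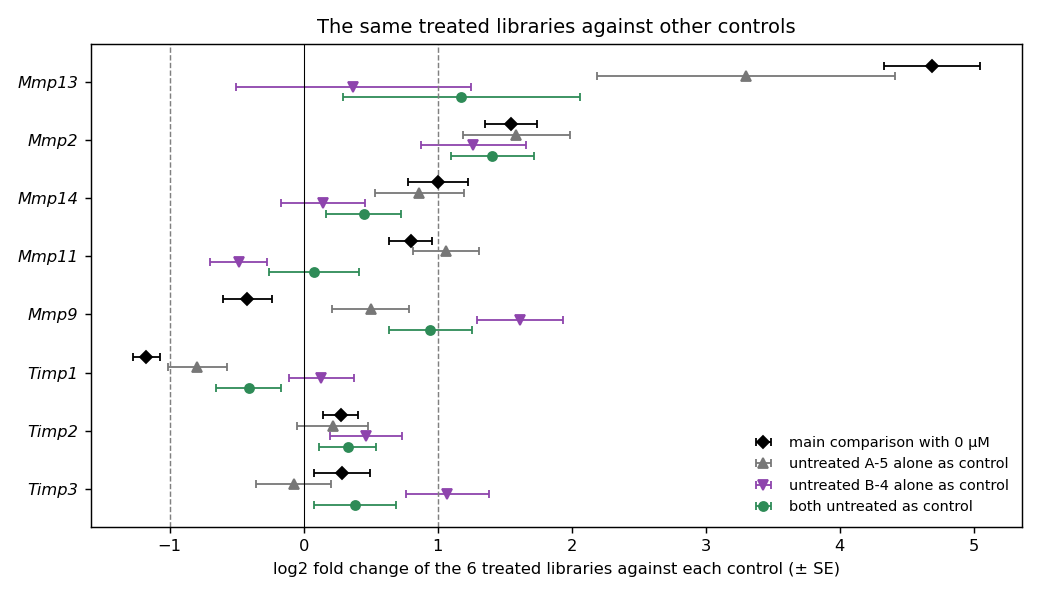
Log2 fold change of the 6 treated libraries (horizontal axis, bars of 1 SE) for the 8 tested members, against the 2 libraries at 0 μM (black diamonds), A-5 alone (grey triangles), B-4 alone (purple inverted triangles) or both untreated libraries (green circles). Mmp2 lay between 1.27 and 1.59 with every control, whereas Mmp13 went from 4.69 to 0.37 with B-4 as the control.

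Sequencing depth fell into 2 classes, each with 1 library at 0 μM and 3 treated libraries. The libraries above 40000000 counts were 0 and 150 μM on day 5 and 150 and 200 μM on day 10. Within these, Mmp13 was higher by 5.79 on the log2 scale (adjusted p = 0.0174) and Mmp2 by 1.55 (adjusted p = 0.0262), and within the shallower libraries by 4.17 (adjusted p = 0.0332) and 1.62 (adjusted p = 0.0481, edgeR). Timp1 had -0.90 in the deeper and -1.42 in the shallower libraries, and Mmp14 0.86 (adjusted p = 0.0696) and 1.14 (adjusted p = 0.0534). These fits carry no day term. The deeper class sets a day 5 control against 1 treated library of day 5 and 2 of day 10, and the shallower class a day 10 control against 2 of day 5 and 1 of day 10, so depth and day cannot be told apart in them. With day and depth class both as covariates over all 8 libraries, the log2 fold change was 4.74 for Mmp13, 1.53 for Mmp2, 0.98 for Mmp14 and -1.175 for Timp1.

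Of a list of 17 genes, the other metalloproteinases and Timp4, 9 were tested, of which 4 were called higher and 1 lower. Their median log2 fold change was 0.64. Over all genes tested, 13.4% were called higher and 5.98% lower, and the counts of this and the following lists were not tested against these shares. Timp4, a further inhibitor, had 12 and 3 counts at 0 μM and 57 to 337 counts in treated libraries (log2 fold change 4.18, adjusted p = 0.000144, edgeR). The value was 5.71 without the library at 0 μM on day 5 and 3.28 without that on day 10. Mmp8, the neutrophil collagenase and a neighbour of Mmp13 in the cluster, had 1 and 0 counts at 0 μM and 10 to 115 counts in treated libraries. Mmp8 was called higher, but Mmp8 and Timp4 both passed the filter through the treated libraries, which favours that direction. With each library left out, the log2 fold change of Mmp8 ran from 4.36 to 9.03. Mmp16, a membrane-bound metalloproteinase, was lower, at 89.5 and 93.4 CPM at 0 μM and 30.4 to 43.3 CPM in treated cells (log2 fold change -1.35, adjusted p = 5.87e-06, edgeR). The other genes called higher were Mmp19 (1.33) and Mmp28 (1.32), which fall outside the naming rule and were chosen after their values were seen.

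Of 19 ADAMTS proteases, which cut proteoglycans and procollagen, 12 were tested, 3 called higher and 1 lower (median 0.08). The shares over all genes were 13.4% and 5.98%. Adamts1, an aggrecan- and versican-cutting member, went from 91.8 and 98.3 CPM at 0 μM to between 1079 and 1545 CPM (log2 fold change 3.77, adjusted p = 6.22e-07, edgeR). Adamts8 was called at 0 and 3 counts at 0 μM and 6 to 20 counts in treated libraries. Like Mmp8 it passed the filter through the treated libraries, and with each library left out it ran from 1.72 to 6.3. Adamts4 was the third called higher (1.12), chosen after its value was seen. Without the library at 0 μM on day 5 Adamts8 was not called, and without that on day 10 Adamts4 had 0.70 and was not called. Adamts7 was lower (log2 fold change -2.18, adjusted p = 6.42e-05). Of 13 further matrix-degrading proteases, 12 were tested, and 4 called higher (median 0.43). The collagen-cutting cathepsin K gene Ctsk was at 69.3 and 71.5 CPM at 0 μM and 142 to 314 CPM in treated cells (log2 fold change 1.49, adjusted p = 0.000223). Adam12 (2.77) and Ctsb (1.31) were also higher, as was Htra1 (1.12), chosen after its value was seen and not called without 0 μM on day 10 (0.45), while without 0 μM on day 5 it had 2.0.

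Genes that activate the precursors or hold the enzymes at the cell surface showed 1 called higher and 1 lower among 13 tested of 16 (median -0.17). Shares over all genes were again 13.4% and 5.98%. Serpine2, an inhibitor of thrombin and plasminogen activators, was higher (log2 fold change 1.35, adjusted p = 0.023, edgeR), and Thbs2, a matricellular protein that aids the uptake of Mmp2, was lower (-1.25, adjusted p = 3.35e-05). Serpine2 was not called without 0 μM on day 10 (0.65) or without 150 μM on day 5 (1.20), and had 2.28 without 0 μM on day 5. All 7 AP-1 subunits were tested and 4 were called lower, with a median of -1.86. Fosl1 went from 111 and 119 CPM at 0 μM to between 5.91 and 12.6 CPM in treated cells (log2 fold change -3.62, adjusted p = 2.9e-06, edgeR), Junb was lower by 2.64 and Jun by 2.16, with Fos (-1.86) chosen after its value was seen. Against B-4 alone the log2 fold changes of Fosl1, Junb and Fos were 0.26, 0.16 and 1.02.

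Of 8 osteoblast markers, 4 were called higher (Runx2, Sp7, Alpl and Ibsp), against 13.4% of all genes, and the median log2 fold change was 1.42. Alpl had 0 and 2 counts at 0 μM, so it passed the filter through the treated libraries, which favours a call in the higher direction. Ibsp had 34 and 27 counts at 0 μM. Col1a1 (0.008), Col1a2 (0.088) and Bglap (1.57, adjusted p = 0.216, edgeR) were not called. Spp1 went the other way (-0.56, adjusted p = 0.0325, edgeR), within the fold limit. The summed level of the 8 osteoblast markers was 16790 to 33930 CPM in treated and 21850 to 26420 CPM in 0 μM libraries, most of it from Col1a1 and Col1a2. Among the markers of other cell types that passed the filter, some were called higher. They were 2 of 3 endothelial (Cdh5 and Tek), 1 of 1 osteoclast (Oscar), 1 of 3 leukocyte and macrophage (Lyz2) and 1 of 4 cartilage markers (Ihh). Counts at 0 μM were 3 and 2 for Cdh5, 5 and 9 for Tek, 4 and 0 for Oscar and 5 and 3 for Ihh. All but Lyz2 thus passed the filter through the treated libraries, which favours a call in the higher direction. Of the 3 adipocyte markers tested, 0 were called by edgeR or DESeq2, and 0 had an unadjusted p under 0.05. The summed level in treated against 0 μM libraries was 2.05 to 2.65 against 0.609 to 0.759 CPM for endothelial markers and 0.282 to 0.551 against 0 to 0.0786 CPM for osteoclast markers. For leukocyte and macrophage markers it was 31.8 to 63.3 against 17.6 to 30.2 CPM, nearly all from Lyz2, with Ptprc under 1 CPM. For cartilage markers it was 83.6 to 161 against 90.9 to 103 CPM, and for adipocyte markers 1.998 to 4.32 against 1.83 to 2.10 CPM, with Adipoq under 1 CPM in all compared libraries. Their part in the changes of the metalloproteinases was not tested.

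Mmp13 had the widest range of the members over the 10 libraries, 6.39 on the log2 CPM scale. Its log2 CPM was compared with that of 10392 named genes whose mean reached 5 CPM, and the most alike over these 10 libraries were Cst3 (Pearson r = 0.985), Tfcp2l1 (0.985) and Sesn1 (0.983). Cst3, which encodes the cysteine protease inhibitor cystatin C, was at 165.9 and 172 CPM at 0 μM, 1582 to 3762 CPM in treated libraries, 355.9 CPM in A-5 and 2545 CPM in B-4. The 10 points share treatment and day, and the correlations are given as a description.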

How the data were processed

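mRNA was enriched with oligo(dT) beads and sequenced by the authors, who deposited raw counts of reads per gene and FPKM values for 10 libraries. The submitters' processing notes name HISAT2 2.0.4 and GATK 3.2-2; the counting program, its use of strand, the genome build and the annotation are not given in the sources used here. The deposited columns of edgeR comparisons between single libraries hold the authors' findings and were not used.

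Counts were normalized by TMM and tested with edgeR 4.0.16 (glmQLFit, filterByExpr; common biological coefficient of variation 0.166), with limma 3.58.1 and DESeq2 1.42.0 as alternatives, in R 4.3.3. Tables and plots were made with pandas 2.3.3, numpy 2.4.6 and matplotlib 3.10.9. A gene was called when its Benjamini-Hochberg adjusted p over all genes tested was under 0.05 and its log2 fold change above 1 or under -1, the limits of the study. The fits were also run on simulated independent libraries with planted changes and the same spread for every gene. That run does not bear on the use of doses as replicates. log2 CPM used a prior count of 2. Gene positions came from GENCODE M21.

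All members were named. The rule for each list was to name at most the 3 called genes with the largest absolute log2 fold change, and the 3 genes most like the member with the widest range. Outside this rule, Mmp19, Mmp28, Adamts4, Htra1, Fos and some of the cell type markers were named. Members and lists were chosen with earlier results of these data known. Alternatives were other tools, normalizations, filters, covariates, call rules and controls, each library left out, and, added after seeing the data, depth classes and single days.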

Additional observations from a re-analysis of the deposited data

Results flagged for a closer look

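In data outside the main comparisons, 3 levels in the untreated libraries stood above 2-fold of the higher library at 0 μM. Mmp13 was at 79.2 CPM in A-5 and at 602.5 CPM in B-4, against 18.4 and 29.2 CPM at 0 μM. Mmp11 was at 101.9 CPM in B-4, against 43.0 and 39.6 CPM at 0 μM, and above all 6 treated libraries. These are single libraries with no time in the labels, and no test was made.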

How the results depend on the processing

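With 1 library at 0 μM a day, treated and 0 μM libraries carry no replicate numbers to pair by. Treated libraries pair by dose across days, and dose as a replicate block left 1 member called, Mmp13 (log2 fold change 1.93). In the main comparison 3 members were higher and 1 lower. When untreated libraries replaced 0 μM, or joined it, 1 was higher. The count of lower members went to 0 in those same settings and with glmTreat, with A-5 or B-4 alone, and among the libraries above 40000000 counts. For the difference between days, 1 member was called by DESeq2 and 1 with a filter of at least 1 count. Without Timp2 the inhibitor sum was 0.715-fold of that at 0 μM. When both untreated libraries replaced 0 μM, the log2 fold change was 0.94 for Mmp9, -0.27 for Adamts8 and -0.05 for Serpine2; with them added it was 0.13 for Mmp9. With A-5 alone it was 0.50 for Mmp9, -0.08 for Timp3 and -0.13 for Serpine2. With B-4 alone it was 1.61 for Mmp9, -0.49 for Mmp11, 0.13 for Timp1, -0.94 for Adamts8, 0.29 for Thbs2, 1.02 for Fos, 0.26 for Fosl1, 0.16 for Junb and -0.46 for Ctsb. Timp3 had -0.08 on day 10 alone. With each library left out, Timp3 ran from -0.08 to 0.69, Mmp13 from 4.11 to 5.40 (its ends without 0 μM on day 10 and on day 5) and Mmp14 from 0.88 to 1.11. Between days, Mmp14 ran from -0.02 to 0.45 in treated cells, and the difference of effect from -0.07 to 0.39 for Mmp14 and from -0.01 to 0.17 for Timp1. The dose slope ran from -0.47 to 0.24 for Mmp9, -0.08 to 0.43 for Mmp11, -0.12 to 0.58 for Mmp13, -0.58 to 0.04 for Mmp14, -0.18 to 0.08 for Timp1 and -0.12 to 0.03 for Timp2. The filter of at least 1 count moved the median of all genes to 0.27, against 0.05. The causes were not tested. With 1 library per dose and day, differences between single doses carry no error.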
